A study of Mus musculus with 5 samples.

Results

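The translation initiation and elongation factors of sorted follicular regulatory T (Tfr) cells were compared between wild-type mice and mice whose regulatory T cells lack Cebpa, which encodes the transcription factor C/EBP alpha. Members were the annotated Ensembl mouse genes with a name that starts with Eif and a digit from 1 to 6, or with Eef and 1 or 2, outside the Y chromosome. The rule leaves out Eif2ak2, Eif2s3x and names ending in -ps, which was 1 copy, and 12 copies with -ps and a number were left out in the same way by choice. This gave 86 of 57186 annotated genes, of which 64 were expressed highly enough to test and 22 were not. The rule reads gene names and chromosomes and no measured value.

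Tfr cells are a kind of regulatory T cell that limits antibody responses inside B cell follicles. They were sorted from mouse spleen as live cells positive for CD4, Foxp3, CXCR5, PD-1 and ICOS, at the 21-day time point of treatment with imiquimod, which stimulates TLR7 and was given to both groups. The WT group (3 libraries) came from mice with a green fluorescent reporter of Foxp3. The Cebpa_KO group (2 libraries) came from Foxp3-Cre Cebpa-flox/flox mice, in which Cre made from Foxp3 deletes Cebpa in regulatory T cells, so the groups also differed in their Foxp3 allele. Every library held cells of several mice, so a p-value reflects how far such pools differ.

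Translation of most mRNAs begins when eIF4F binds the 5′ cap and recruits a small ribosomal subunit that carries eIF1, eIF1A, eIF3, eIF5 and initiator tRNA on eIF2 with GTP. The subunit scans to a start codon, eIF2 leaves with GDP, and eIF2B reloads it with GTP. eEF1A then brings each aminoacyl-tRNA, eIF5A helps peptide bonds form, and eEF2 moves the ribosome along. T cells raise the abundance of this machinery when they are activated, under control of MYC and of mTORC1.

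Cebpa read at 12.9, 17.7 and 12.8 across WT, against 0.317 and 0.550 in Cebpa_KO, all in scaled TPM (TPM, an abundance normalized to gene length and library total, divided by a factor per library). Its log2 difference was -3.42 (adjusted p = 0.00371, limma; 0.0512 without Cebpa_KO replicate 2), and an exact two-sided permutation test over libraries gave p = 0.1, the smallest that 3 against 2 libraries allow. Foxp3 read at 83.0, 107 and 105 across WT, against 6.74 and 5.58 in Cebpa_KO, although the labels describe a Foxp3-positive sort for both groups. Of 9 Tfr markers, 7 were lower in Cebpa_KO, against 9.82% of all tested genes. Cd4 and Pdcd1 passed in neither direction. For each of them both Cebpa_KO libraries lay below all WT libraries, as for 28.0% of all tested genes. Summed Y-linked genes read 151 to 162 in WT and 0 to 0.0311 in Cebpa_KO, and Xist read at most 0.0220 in WT and 10.7 to 11.4 in Cebpa_KO, so sex and genotype cannot be told apart. WT replicate 3 stood apart from the other WT libraries in stress-induced genes: Hspa1a, a heat-shock chaperone gene, read 0.911, 0.684 and 690.3 across WT, against 1147 and 1238 in Cebpa_KO. Aligned depth was 6.76 to 7.08 gigabases per library.

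Markers of other cells also differed between libraries. The summed B and plasma cell markers read 6000, 4777 and 15562 across WT, against 8238 and 4446 in Cebpa_KO, and 1 of 10 tested markers was higher. That marker was Ighg1, an immunoglobulin heavy chain gene, which read 0.254, 0.205 and 3.09 across WT, against 288 and 111 in Cebpa_KO (adjusted p = 0.00725, limma; 0.0671 and 0.0703 without Cebpa_KO replicate 1 or 2). The erythroid sum read 80.3, 55.5 and 640.0 across WT, against 1903 and 212 in Cebpa_KO, and the neutrophil sum read 26.3, 18.3 and 129 across WT, against 489 and 109 in Cebpa_KO; 0 of 6 and 0 of 9 passed the limma test in either direction, with an unadjusted p under 0.05 in 0 and 3. The macrophage sum was 34.4 to 88.8 in WT and 24.6 to 102 in Cebpa_KO, and the CD8 and NK sum was 49.1 to 62.6 and 25.1 to 27.2. Their part in the results below was not tested. The median difference of the translation factors from WT was 0.37 for Cebpa_KO replicate 1 and 0.33 for replicate 2. The B cell, erythroid, neutrophil and macrophage sums were lower in replicate 2 than in replicate 1. In replicate 2 the erythroid and neutrophil sums (212 and 109) still exceeded those of WT replicates 1 and 2, and Ighg1 (111) exceeded every WT library. Its B cell and macrophage sums (4446 and 24.6) were below every WT library. In bulk libraries, more cells of a type and more RNA per cell cannot be told apart.

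Many translation factors were higher in Cebpa_KO, few were lower, and the differences were moderate. Of the 64 tested members, 29 (45.3%) were higher and 3 (4.69%) were lower at a Benjamini-Hochberg adjusted p under 0.05 in limma, while 9.93% of all 16254 tested genes were higher and 9.82% were lower. Both Cebpa_KO libraries lay above all WT libraries for 40 members and below them for 7, which is 62.5% and 10.9%, against 28.7% and 28.0% of all tested genes. The median log2 difference of the members was 0.38, and that of all tested genes was 0.01. A difference here is Cebpa_KO minus WT on log2(scaled TPM + 1), given with its standard error, and a fold is the ratio of the group means. Of the 64, 63 had a TPM of at least 1 in every library, so passing the filter did not depend on the difference for them; the exception was Eef2k.

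**Figure D1:**
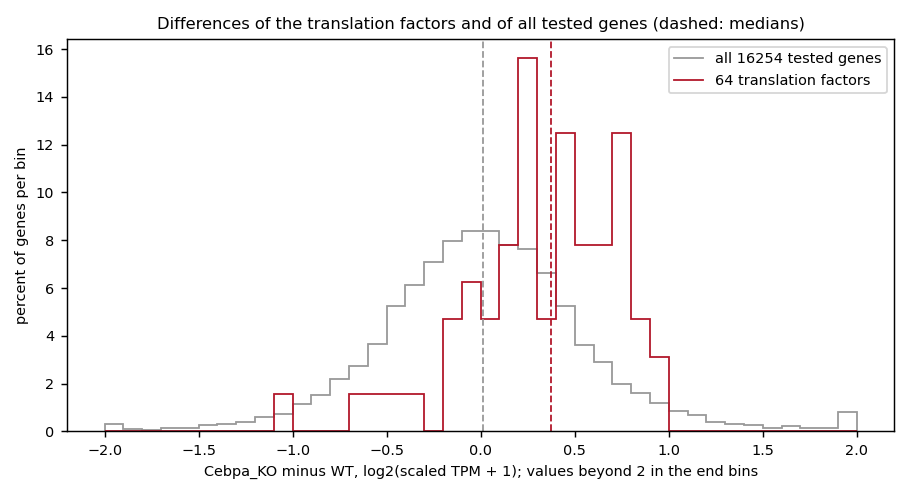
Share of genes (percent per bin, vertical axis) by the difference Cebpa_KO minus WT on log2(scaled TPM + 1) (horizontal axis), for all 16254 tested genes and for the 64 tested translation factors. Dashed lines mark the medians of 0.01 and 0.38, and the translation factors lie mostly to the right of 0.

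The 29 members that were higher had log2 differences from 0.38 to 1.00 with a median of 0.64, and their adjusted p ran from 0.00682 to 0.0447 (limma). Summed over all 86 members, scaled TPM was 10559 to 10983 in WT and 13984 to 14326 in Cebpa_KO, a 1.32-fold higher mean, and without Eif5a it was 8911 to 9419 and 11031 to 11615, 1.23-fold higher. The members made up 1.07% to 1.14% of the annotated TPM in WT and 1.44% to 1.47% in Cebpa_KO. Because WT replicate 3 resembled the Cebpa_KO libraries in its stress genes, the members were also set against it alone. The median difference was 0.38, against 0.36 for WT replicates 1 and 2. With 1 WT library, the spread comes only from the 2 Cebpa_KO libraries, so counts of calls are left out.

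The calls rested on both Cebpa_KO libraries. Without Cebpa_KO replicate 1 or 2, 0 members passed (smallest adjusted p 0.0732 and 0.0739, limma), while 27 and 31 were higher and 3 and 4 lower at an unadjusted p under 0.05. The shares of all genes at that p were 10.4% and 11.8% higher and 12.2% and 11.9% lower. By adjusted p, 9 and 5 of all genes were then higher and 25 and 18 lower. Without WT replicate 2, 10 members were higher (2.74% of all genes) and 0 lower (2.44%), with 32 higher and 3 lower at an unadjusted p under 0.05 (15.5% and 15.8% of all genes). Eif1a, Eif1ax, Eif2s1, Eif2s2, Eif3b, Eif5a and Eif6 lost their call, among 15 alternatives, only when a Cebpa_KO library was left out.

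**Figure D2:**
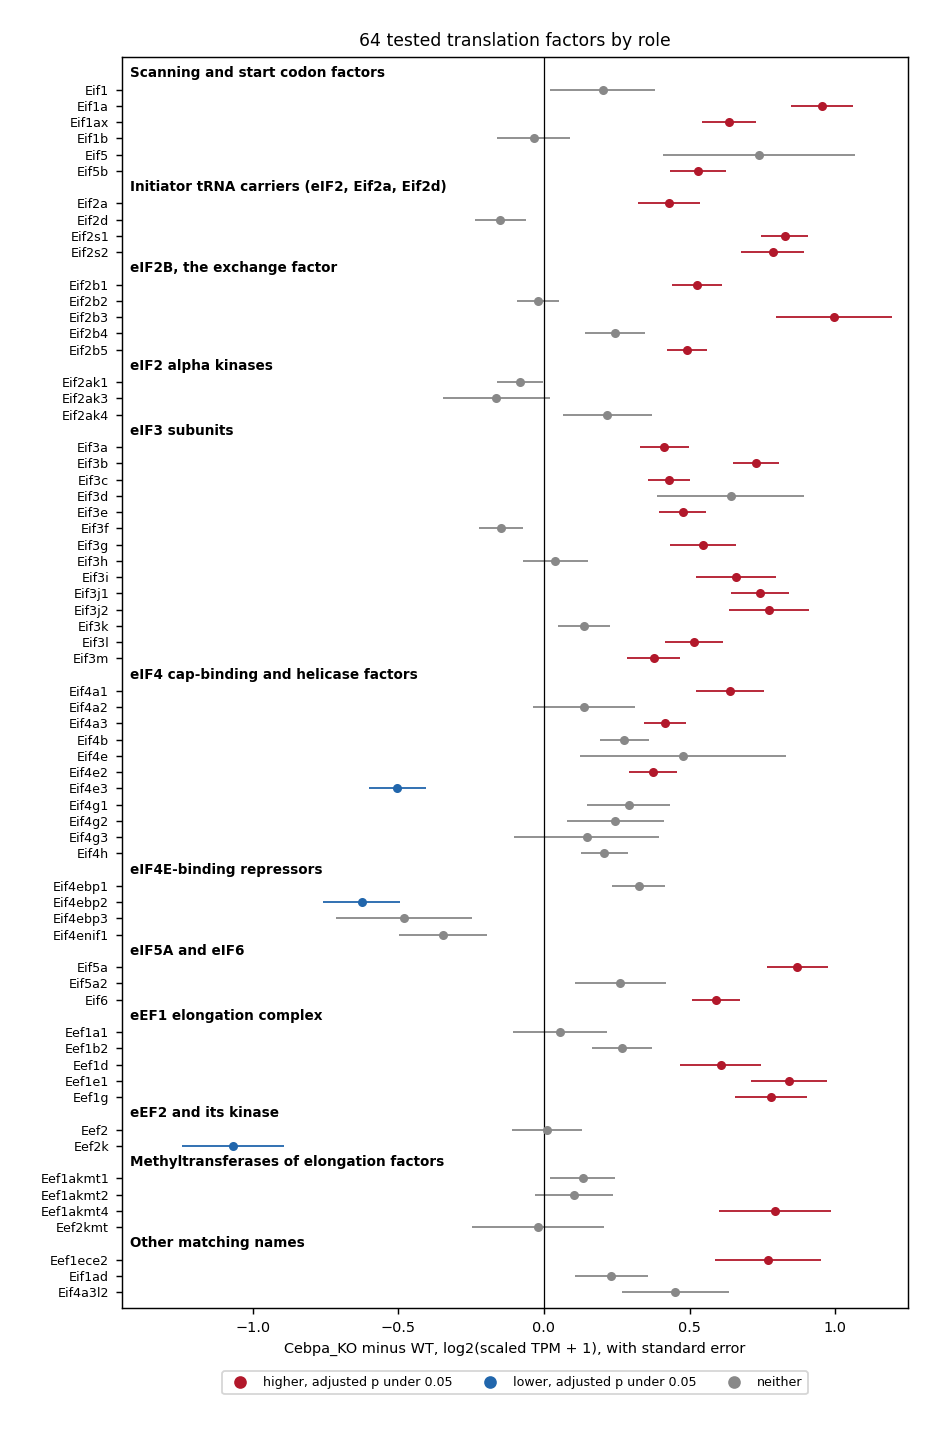
Difference Cebpa_KO minus WT on log2(scaled TPM + 1) (horizontal axis) for each of the 64 tested translation factors, grouped by role; points are estimates from limma and bars are 1 standard error. Red points are the 29 that were higher, blue points the 3 that were lower, and the eIF3 group holds 10 of the red points.

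Among the factors that hold the small subunit open for scanning and fix the start codon, 3 of 6 were higher and 0 lower. Eif1a encodes a copy of eIF1A, which sits in the decoding site during scanning, and lies on chromosome 18 (ENSMUSG00000057561, 46730768 to 46749523, plus strand, mm39). It read 43.6, 36.9 and 42.5 across WT, against 83.6 and 76.9 in Cebpa_KO, a 1.96-fold rise (log2 difference 0.95 ± 0.11, adjusted p = 0.00829). Its X-linked relative Eif1ax read 22.4, 23.4 and 21.1 across WT, against 35.5 and 35.0 in Cebpa_KO, 1.58-fold higher (log2 difference 0.64 ± 0.09, adjusted p = 0.0140). Eif5b encodes the GTPase that joins the large subunit and read 14.4, 14.3 and 14.8 across WT, against 21.6 and 21.1 in Cebpa_KO (log2 difference 0.53 ± 0.10, adjusted p = 0.0224). In all 3 the groups did not overlap. The adjusted p of Eif5b was 0.0719 without WT replicate 2.

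The remaining start-site factors passed in neither direction. Eif5, which stimulates GTP hydrolysis on eIF2, read 91.9, 87.2 and 176 across WT, against 211 and 168 in Cebpa_KO: WT replicate 3 was level with the Cebpa_KO libraries and far above the other WT libraries, so the groups overlapped (difference 0.74, adjusted p = 0.167). Eif1, the start-codon fidelity factor, read 805, 727 and 1067 across WT, against 933 and 1036 in Cebpa_KO, with WT replicate 3 the highest of all, and Eif1b read 69.2, 74.5 and 59.0 across WT, against 69.2 and 62.2 in Cebpa_KO. Their differences were 0.20 and -0.04.

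eIF2 is a trimer of alpha, beta and gamma subunits that carries initiator tRNA. Eif2s1, the alpha subunit and the target of the stress kinases, lies on chromosome 12 (ENSMUSG00000021116, 78908593 to 78933784, plus strand, mm39) and read 90.0, 82.7 and 83.0 across WT, against 155 and 149 in Cebpa_KO. It was 1.78-fold higher in Cebpa_KO (log2 difference 0.83 ± 0.08, adjusted p = 0.00682), the smallest adjusted p of any member. Eif2s2, the beta subunit, read 37.6, 43.7 and 37.0 across WT, against 71.5 and 65.8 in Cebpa_KO and was 1.74-fold higher (log2 difference 0.79 ± 0.11, adjusted p = 0.0125). The alpha to beta ratio was 1.89 to 2.39 in WT and 2.17 to 2.26 in Cebpa_KO, ranges that overlap.

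The gamma subunit is encoded on both sex chromosomes, by Eif2s3x and Eif2s3y, which the rule leaves out. Eif2s3y read 87.1, 85.6 and 80.2 across WT, against 0 in both Cebpa_KO libraries, and Eif2s3x read 19.3, 20.3 and 18.2 across WT, against 44.0 and 40.9 in Cebpa_KO (log2 difference 1.10 ± 0.10, adjusted p = 0.00643). Their sum was 98.5 to 106 in WT and 40.9 to 44.0 in Cebpa_KO. The ratio of alpha to summed gamma mRNA was 0.781 to 0.846 in WT and 3.53 to 3.64 in Cebpa_KO. Sex and genotype cannot be told apart in this ratio.

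**Figure D3:**
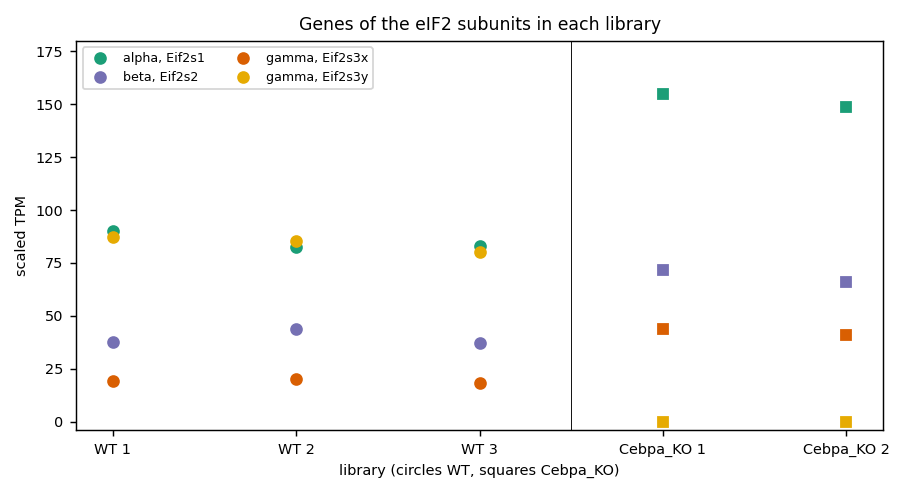
Scaled TPM (vertical axis) of the genes of the eIF2 subunits in each library (horizontal axis; circles WT, squares Cebpa_KO). The alpha and beta genes are higher in both Cebpa_KO libraries, while the Y-linked gamma gene reads 80.2 to 87.1 in WT and 0 in Cebpa_KO.

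Eif2a, a separate initiator tRNA carrier despite its name, read 26.0, 22.5 and 22.9 across WT, against 33.2 and 31.5 in Cebpa_KO (log2 difference 0.43 ± 0.10, adjusted p = 0.0447); without WT replicates 2 or 3 its adjusted p was 0.117 and 0.0608. Eif2d, which can also deliver tRNA to the small subunit, read 83.7, 80.3 and 82.6 across WT, against 69.3 and 78.9 in Cebpa_KO, a difference of -0.15 that did not pass.

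eIF2B, the 5-subunit complex that exchanges GDP for GTP on eIF2, had 3 of 5 subunit genes higher. Eif2b3 (gamma) read 24.6, 20.4 and 32.8 across WT, against 51.0 and 52.7 in Cebpa_KO and had the largest difference of any member that was higher (log2 difference 1.00 ± 0.20, adjusted p = 0.0278). Eif2b5, the catalytic epsilon subunit, read 75.0, 75.2 and 74.1 across WT, against 105 and 106 in Cebpa_KO (log2 difference 0.49 ± 0.07, adjusted p = 0.0128), and Eif2b1 (alpha) read 49.5, 46.1 and 44.5 across WT, against 66.3 and 69.0 in Cebpa_KO (log2 difference 0.53 ± 0.09, adjusted p = 0.0178). The spread within each group was small for Eif2b5, whose SD was 0.563 in WT and 0.894 in Cebpa_KO. Eif2b2 (beta) read 125, 119 and 118 across WT, against 119.9 and 118 in Cebpa_KO, with overlapping groups, and Eif2b4 (delta) read 73.3, 64.7 and 63.2 across WT, against 75.3 and 83.7 in Cebpa_KO without passing (adjusted p = 0.152). Without WT replicate 2 the adjusted p of Eif2b1, Eif2b3 and Eif2b5 was 0.0632, 0.0621 and 0.0527, and without WT replicate 1 that of Eif2b3 was 0.0748.

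Kinases that phosphorylate eIF2 alpha and so slow initiation did not pass. Eif2ak1 (HRI, the heme-regulated kinase) read 53.2, 50.5 and 53.9 across WT, against 49.8 and 49.2 in Cebpa_KO. Eif2ak3 (PERK, of the endoplasmic reticulum) read 5.62, 6.35 and 7.54 across WT, against 6.50 and 4.92 in Cebpa_KO. Eif2ak4 (GCN2, which senses uncharged tRNA) read 6.88, 9.10 and 8.42 across WT, against 9.61 and 9.51 in Cebpa_KO. Eif2ak1 was slightly lower and Eif2ak4 slightly higher in both Cebpa_KO libraries than in any WT library, and Eif2ak3 overlapped. Their differences were -0.08, -0.16 and 0.22, with 95% intervals of -0.28 to 0.12, -0.63 to 0.30 and -0.16 to 0.60. The substrate gene Eif2s1 was higher while its kinase genes showed no detectable difference.

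eIF3, the largest initiation factor, scaffolds the small subunit and recruits mRNA, and 10 of its 14 tested genes were higher with none lower (median difference 0.50). Eif3b, a core subunit on chromosome 5 (ENSMUSG00000056076, 140405083 to 140429115, plus strand, mm39), read 268, 265 and 290.2 across WT, against 447 and 462 in Cebpa_KO (log2 difference 0.73 ± 0.08, adjusted p = 0.00792). Its core partners Eif3a, Eif3c, Eif3g and Eif3i were 1.34-, 1.35-, 1.46- and 1.58-fold higher. Eif3a, the scaffold subunit, read 63.7, 69.9 and 69.6 across WT, against 93.4 and 87.7 in Cebpa_KO (log2 difference 0.41 ± 0.08, adjusted p = 0.0291), and Eif3i read 161, 197 and 150.1 across WT, against 281 and 253 in Cebpa_KO (log2 difference 0.66 ± 0.14, adjusted p = 0.0308). Eif3c read 164, 158 and 170.0 across WT, against 222 and 221 in Cebpa_KO (log2 difference 0.43 ± 0.07, adjusted p = 0.0191) and Eif3g read 319.7, 279 and 349 across WT, against 452 and 468 in Cebpa_KO (log2 difference 0.55 ± 0.11, adjusted p = 0.0302). In all 5 of these core genes, both Cebpa_KO libraries exceeded every WT library.

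The loosely bound subunit eIF3j is encoded by near-identical Eif3j1 and Eif3j2, between which reads could be split by the counting. Eif3j1 read 16.1, 16.0 and 16.7 across WT, against 29.2 and 26.6 in Cebpa_KO (log2 difference 0.74 ± 0.10, adjusted p = 0.0117). Eif3j2 read 12.6, 10.7 and 11.7 across WT, against 22.7 and 18.7 in Cebpa_KO (log2 difference 0.77 ± 0.14, adjusted p = 0.0209). Summed, the pair read 26.7 to 28.7 in WT and 45.4 to 52.0 in Cebpa_KO, 1.74-fold higher. Eif3e, Eif3l and Eif3m, subunits with PCI domains, were 1.39-, 1.43- and 1.30-fold higher (adjusted p = 0.0194, 0.0247 and 0.0442, limma).

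The 4 remaining subunits passed in neither direction. Eif3f, which carries an MPN domain, read 102, 97.9 and 98.0 across WT, against 92.5 and 86.5 in Cebpa_KO, lower in both Cebpa_KO libraries than in any WT library without passing (log2 difference -0.15 ± 0.08, adjusted p = 0.213). Eif3h, also an MPN protein, read 277, 269 and 227 across WT, against 275 and 253 in Cebpa_KO, with overlapping groups. Eif3k, the smallest subunit, read 327, 303 and 283 across WT, against 340.4 and 329 in Cebpa_KO. Eif3d, which can itself bind the cap of some mRNAs, read 52.3, 71.3 and 48.6 across WT, against 112 and 70.6 in Cebpa_KO: the first Cebpa_KO library was high and the second lay within the WT range. Differences of the 14 genes thus ran from -0.15 for Eif3f to 0.77 for Eif3j2. Without WT replicate 2, Eif3a, Eif3c, Eif3e, Eif3g, Eif3j1, Eif3j2, Eif3l and Eif3m lost their call (adjusted p 0.0505 to 0.113); without WT replicate 1, Eif3a, Eif3g and Eif3i did (0.0557 to 0.0790), and without WT replicate 3, Eif3m did (0.0567).

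**Figure D4:**
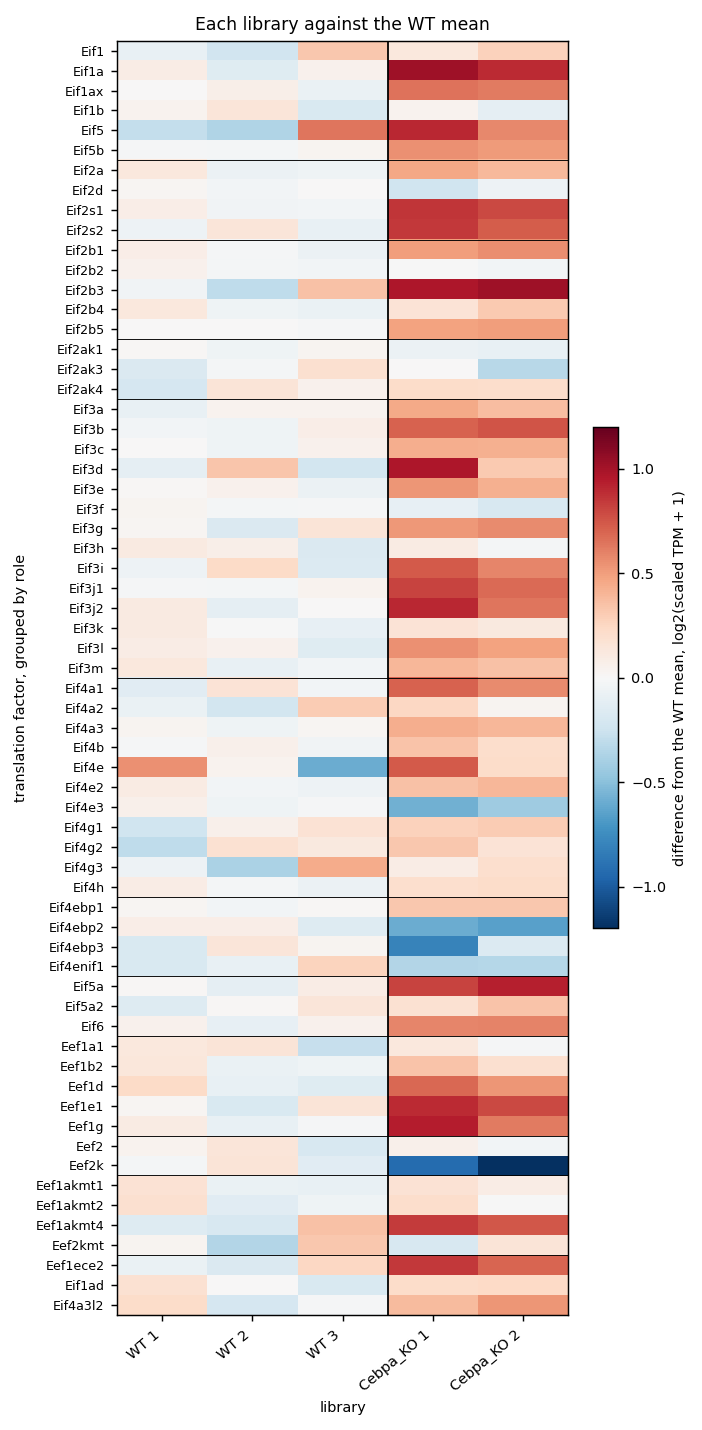
Each of the 64 tested translation factors (rows, grouped by role) in each library (columns), as the difference from its WT mean on log2(scaled TPM + 1); red is above and blue below, with the colour scale ending at 1.2. Red runs through most rows of both Cebpa_KO columns, and Eef2k and Eif4ebp2 are among the blue rows.

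Of the 11 cap-binding and helicase factors tested, 3 were higher and 1 lower, with a median difference of 0.28. Eif4a1, the RNA helicase that unwinds mRNA leaders, lies on chromosome 11 (ENSMUSG00000059796, 69557762 to 69563249, minus strand, mm39) and read 442, 546 and 476 across WT, against 795 and 722 in Cebpa_KO (log2 difference 0.64 ± 0.12, adjusted p = 0.0226). Its paralog Eif4a2 read 105, 95.1 and 137 across WT, against 132 and 113 in Cebpa_KO, overlapping groups with a difference of 0.14. The Eif4a1 to Eif4a2 ratio was 3.47 to 5.74 in WT and 6.03 to 6.37 in Cebpa_KO. Eif4a3, the helicase of the exon junction complex rather than of initiation, read 295, 278 and 292 across WT, against 389 and 381 in Cebpa_KO (log2 difference 0.42 ± 0.07, adjusted p = 0.0203).

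Cap-binding proteins went in different directions. Eif4e, the cap-binding subunit of eIF4F, read 271, 190.1 and 122 across WT, against 307 and 216 in Cebpa_KO: it ran over more than a 2-fold range in WT alone, and the groups overlapped (difference 0.48, interval -0.41 to 1.36). Eif4e2, which binds the cap without recruiting eIF4G in its best-known role as a repressor, read 162, 147 and 145 across WT, against 193 and 199 in Cebpa_KO (log2 difference 0.38 ± 0.08, adjusted p = 0.0336). Eif4e3, a divergent cap-binding relative, fell: it read 32.5, 30.1 and 30.9 across WT, against 20.5 and 22.9 in Cebpa_KO, 1.44-fold higher in WT (log2 difference -0.50 ± 0.10, adjusted p = 0.0258).

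The scaffold genes Eif4g1, Eif4g2 and Eif4g3 had differences of 0.29, 0.25 and 0.15 and did not pass. Eif4g1, the scaffold that joins the cap-binding protein to eIF3, read 33.0, 41.0 and 44.3 across WT, against 47.7 and 48.5 in Cebpa_KO. Eif4b, which stimulates the helicase, read 65.4, 68.8 and 63.9 across WT, against 84.1 and 76.4 in Cebpa_KO, and its relative Eif4h read 313, 289.7 and 281 across WT, against 337 and 342 in Cebpa_KO. The groups did not overlap in either, but the adjusted p was 0.0759 and 0.126. Without WT replicate 1, Eif4a1 and Eif4e3 had an adjusted p of 0.0530 and 0.0584, and without WT replicate 2, Eif4a3, Eif4e2 and Eif4e3 had 0.0680, 0.0987 and 0.0717.

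Repressors that bind eIF4E had a median difference of -0.41, with 0 of 4 higher and 1 lower. Eif4ebp2, which holds eIF4E away from eIF4G until mTORC1 phosphorylates it, lies on chromosome 10 (ENSMUSG00000020091, 61264270 to 61288440, minus strand, mm39) and read 14.0, 14.1 and 11.8 across WT, against 8.42 and 8.07 in Cebpa_KO. It fell by 0.63 on the log2 scale (SE 0.13, adjusted p = 0.0304, limma). Eif4ebp1, the family member with the same role, read 19.8, 19.0 and 19.6 across WT, against 24.6 and 24.6 in Cebpa_KO, a difference of 0.32 in the other direction with an adjusted p of 0.0592. Eif4ebp3 read 6.63, 8.56 and 7.87 across WT, against 3.97 and 6.73 in Cebpa_KO, with overlapping groups. Eif4enif1, the shuttling eIF4E-binding protein 4E-T, read 40.9, 43.6 and 56.1 across WT, against 36.2 and 36.4 in Cebpa_KO, and neither of these passed. Without WT replicates 1 or 2 the adjusted p of Eif4ebp2 was 0.0696 and 0.0923.

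Eif5a encodes the factor that keeps ribosomes moving through difficult sequences and needs the amino acid hypusine. It lies on chromosome 11 (ENSMUSG00000078812, 69807540 to 69812784, minus strand, mm39) and read 1564, 1437 and 1649 across WT, against 2711 and 2953 in Cebpa_KO, 1.83-fold higher (log2 difference 0.87 ± 0.11, adjusted p = 0.00985). In TPM it gained more than any other member, with a mean of 1550.0 in WT and 2832 in Cebpa_KO, and it passed Eef1a1 as the most abundant member: the Eif5a to Eef1a1 ratio was 0.752, 0.676 and 1.05 across WT, against 1.30 and 1.56 in Cebpa_KO. Its paralog Eif5a2 read 3.91, 4.54 and 5.05 across WT, against 5.21 and 5.96 in Cebpa_KO and did not pass. Eif6, which keeps large subunits from joining too early and acts in their assembly, read 209, 188 and 209 across WT, against 304 and 305 in Cebpa_KO (log2 difference 0.59 ± 0.08, adjusted p = 0.0125).

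**Figure D5:**
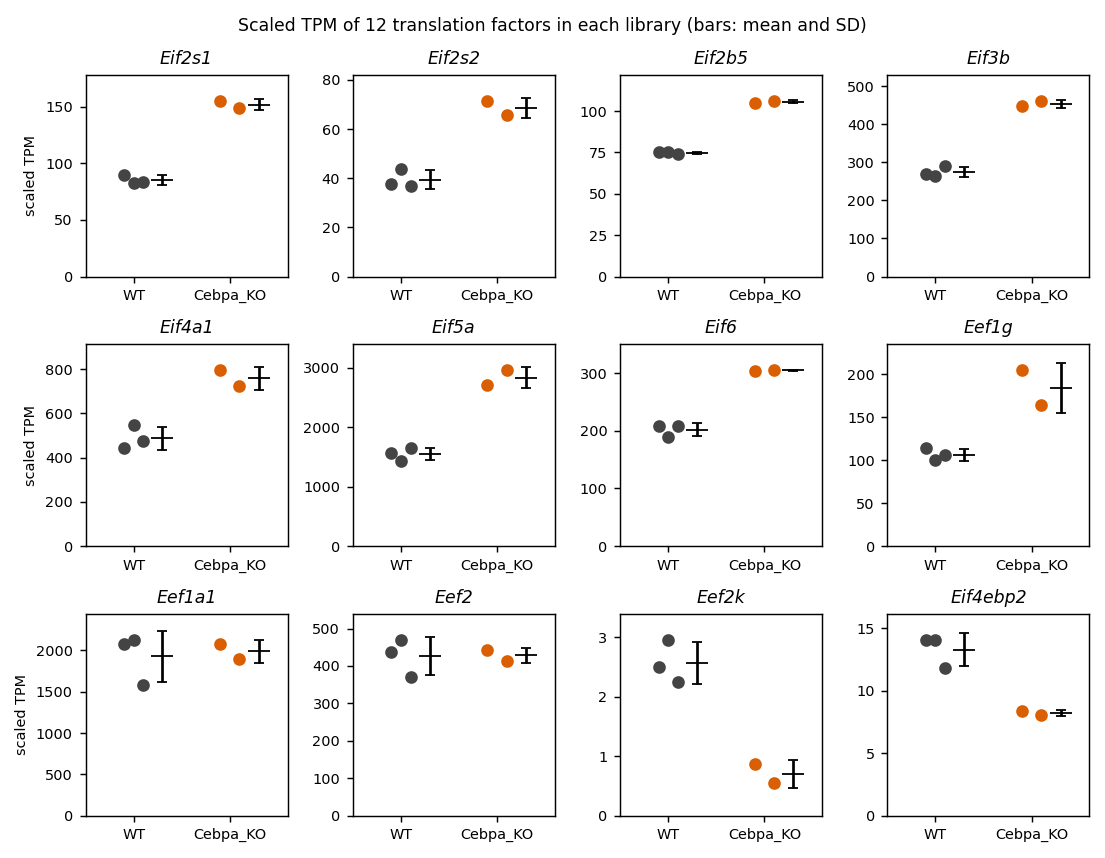
Scaled TPM (vertical axis, starting at 0) of 12 translation factors in each library; points are libraries and bars show the mean and SD of each group. Eif5a reads 1437 to 1649 in WT and 2711 to 2953 in Cebpa_KO, while Eef1a1 and Eef2 overlap between groups.

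The main elongation GTPases showed no detectable difference. Eef1a1, which delivers aminoacyl-tRNA, read 2080.4, 2127 and 1577 across WT, against 2083 and 1892 in Cebpa_KO (difference 0.06, interval -0.35 to 0.46), and Eef2, which drives translocation, read 439, 469.5 and 372 across WT, against 442 and 414 in Cebpa_KO (difference 0.01, interval -0.29 to 0.31). The sign of both differences changed without WT replicate 3 or without Cebpa_KO replicate 1. Changes as large as those of Eif5a lie outside both intervals. Eef1a2, the muscle and neuron form, was listed at 0 in all libraries.

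Subunits that reload eEF1A with GTP were higher in 2 of 3 cases. Eef1g, the gamma subunit, read 114, 99.7 and 105 across WT, against 204 and 164 in Cebpa_KO (log2 difference 0.78 ± 0.12, adjusted p = 0.0165), and Eef1d, the delta subunit, read 116, 92.4 and 89.2 across WT, against 159 and 142 in Cebpa_KO (log2 difference 0.61 ± 0.14, adjusted p = 0.0374). Eef1b2, the beta subunit, read 129, 111 and 113 across WT, against 149 and 134 in Cebpa_KO, above every WT library but with an adjusted p of 0.124. Eef1e1, which belongs to the multi-tRNA synthetase complex, read 20.7, 17.8 and 22.9 across WT, against 38.7 and 36.0 in Cebpa_KO (log2 difference 0.84 ± 0.13, adjusted p = 0.0158). The adjusted p of Eef1g and Eef1d was 0.0607 and 0.109 when WT replicate 2 was left out.

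Eef2k, the kinase that inhibits eEF2 by phosphorylation, was 1 of the 3 members that were lower. It lies on chromosome 7 (ENSMUSG00000035064, 120442054 to 120506673, plus strand, mm39) and read 2.51, 2.96 and 2.25 across WT, against 0.870 and 0.541 in Cebpa_KO, a low level in all libraries and under 1 in both Cebpa_KO libraries. The mean was 3.64-fold higher in WT (log2 difference -1.07 ± 0.18, adjusted p = 0.0184). It passed the filter on low values only through the WT libraries and so had to differ: its test is no support for a fall, and with a filter at a TPM of 5 it was not tested. Its adjusted p was 0.0609 without WT replicate 2.

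Of the 4 tested methyltransferases of elongation factors, 1 was higher. Eef1akmt1, Eef1akmt2 and Eef2kmt had differences of 0.13, 0.10 and -0.02. Eef1akmt4 read 14.3, 13.9 and 20.7 across WT, against 29.5 and 27.5 in Cebpa_KO (log2 difference 0.79 ± 0.19, adjusted p = 0.0441). Eef1ece2, a locus that overlaps Eef1akmt4 on the same strand and could share its reads, read 2.78, 2.55 and 3.75 across WT, against 6.19 and 5.47 in Cebpa_KO (log2 difference 0.77 ± 0.18, adjusted p = 0.0412), so these counts of called members may hold 1 signal under both names. Without WT replicates 1 or 2 both lost their call (adjusted p 0.0894 to 0.113).

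The 22 members that were not tested were nearly silent. They include 17 numbered relatives of Eif1ad in a cluster on chromosome 12, with no value above 0.118, and Eef1akmt3. Eef1a2, Eif4e1b, Eif2c5 and Eif1ad16 were listed at 0 in all libraries. Just under the filter lay Eif4a3l1, which read 0.724, 0.520 and 0.710 across WT, against 1.23 and 0.590 in Cebpa_KO; just over it lay Eif4a3l2, which ran from 1.74 to 3.53 over the 5 libraries and did not pass. Tested levels ran from a WT mean of 2.17 for Eif4a3l2 to 1928 for Eef1a1, with a median of 70.3 in WT and 87.4 in Cebpa_KO. In WT the order of means was Eef1a1, Eif5a, Eif1, Eif4a1 and Eef2, and the WT libraries of Eef1a1 and Eif5a overlapped, as did those of Eif4a1 and Eef2.

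Promoter sequences were compared because so many members were higher together. RefSeq windows of build GRCm38.p6, from 250 bases before to 50 after each annotated start, were found for 48 of the 64 tested members. The E-box CACGTG, a palindrome bound by MYC and related factors, was searched on both strands. It occurred in 13 of the 48 (27.1%), in 11.7% of 9324 tested genes and in 8.09% of all 27025 genes with a window. Of the members with a window, it was found for 4 of 20 that were higher, 1 of 2 that were lower and 8 of 26 that were neither. A gene counted if any of its windows matched, and the 27025 genes had 32851 windows, so genes with several windows could match more easily. A match is a string of letters and not a measured binding site. These 46-base stretches show the E-box in capitals for 2 members that were higher, 1 that was lower and 2 that were neither, in that order.
Eif5a, chr11:69920783-69920828, minus strand: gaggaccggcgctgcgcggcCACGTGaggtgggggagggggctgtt
Eif4a1, chr11:69672587-69672632, minus strand: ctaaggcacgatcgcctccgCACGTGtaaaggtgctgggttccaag
Eef2k, chr7:120842780-120842825, plus strand: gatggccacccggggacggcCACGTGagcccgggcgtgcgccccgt
Eif4e, chr3:138527020-138527065, plus strand: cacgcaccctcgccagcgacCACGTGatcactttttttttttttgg
Eef2, chr10:81176568-81176613, plus strand: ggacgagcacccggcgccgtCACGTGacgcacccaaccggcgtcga

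Many translation factor mRNAs begin with a C followed by a run of pyrimidines, the terminal oligopyrimidine (TOP) feature through which mTORC1 and LARP1 control their translation. A C within 3 bases of the annotated start that opened a run of at least 5 pyrimidines was found for 8 of 48 members (16.7%) and for 15.0% of the tested genes. Such a run was found for 3 of 20 members that were higher, 0 of 2 that were lower and 5 of 26 that were neither. Those that were higher were Eif2b5, Eif3b and Eif3l, while Eef1a1 and Eif3f were neither higher nor lower. The starts were annotated and not measured in these cells, so a run at another start would be missed. At the annotated starts the longest run was 1 for Eef2 and 2 for Eef1b2 and Eif4b. The 30 bases around each start are shown with the counted pyrimidines in capitals, from the C within 3 bases of the start onward; pyrimidines just before that C are in lower case.
Eef1a1, chr9:78481710-78481739, minus strand: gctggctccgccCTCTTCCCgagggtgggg
Eif3f, chr7:108934400-108934429, plus strand: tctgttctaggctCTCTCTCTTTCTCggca
The C/EBP palindrome TTGCGCAA was found for 1 of 48 members and for 0.322% of the tested genes. The C/EBP-ATF element TGATGNAA, where N is any base, was found for 1 of 48 members (Eef2k) and for 2.66% of the tested genes.

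Other genes of the pathway were described from 6 lists. Among 16 genes of mTORC1 and MNK signalling, 2 were higher and 5 lower, against 9.93% and 9.82% of all tested genes. Myc, a transcription factor known to drive ribosome and translation factor genes, read 113, 117 and 138 across WT, against 252 and 211 in Cebpa_KO (log2 difference 0.91 ± 0.13, adjusted p = 0.0128), and Rps6kb1, an S6 kinase, read 21.4, 21.8 and 23.6 across WT, against 30.0 and 31.8 in Cebpa_KO (log2 difference 0.46 ± 0.10, adjusted p = 0.0314). The genes that were lower were Ddit4 (-1.01), Tsc1 (-0.58), Pdcd4 (-1.17), Rps6kb2 (-0.45) and Mknk1 (-0.43). Ddit4 and Tsc1 restrain mTORC1, and Pdcd4 inhibits the eIF4A helicase. Pdcd4 read 148, 145 and 119 across WT, against 71.7 and 50.6 in Cebpa_KO. The other S6 kinase gene, Rps6kb2, went against Rps6kb1: it read 376, 342 and 362 across WT, against 250 and 277 in Cebpa_KO. Mknk1 encodes a MNK kinase, so the genes that were lower were not all brakes on translation. When WT replicate 2 was left out, all 7 lost their call (adjusted p 0.0548 to 0.105). Without WT replicate 1, Pdcd4, Rps6kb1, Rps6kb2 and Mknk1 did (0.0502 to 0.0677), and without WT replicate 3, Tsc1 did (0.0539). None of the 7, nor of the list genes named in the next 2 paragraphs, passed without Cebpa_KO replicate 1 or without replicate 2. Mtor itself read 6.57, 8.54 and 7.99 across WT, against 7.75 and 8.08 in Cebpa_KO. Larp1 read 28.3, 34.5 and 36.7 across WT, against 47.8 and 46.5 in Cebpa_KO and did not pass (adjusted p = 0.0520; 0.0335 without WT replicate 3).

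Of 12 tested gene IDs of the integrated stress response, which runs through eIF2 alpha, 1 was higher and 2 lower. Over all tested genes 9.93% were higher and 9.82% lower, so these counts are not read as a result about the pathway. Asns, asparagine synthetase and an ATF4 target, read 5.92, 6.33 and 7.45 across WT, against 27.8 and 22.7 in Cebpa_KO (log2 difference 1.79 ± 0.15, adjusted p = 0.00623), while Sesn2 (-0.79) and 1 of the gene IDs of Ddit3 (-0.68) were lower. The Ddit3 call was lost without any 1 of the 5 libraries (adjusted p 0.0520 to 0.164), and that of Sesn2 without WT replicate 2 (0.0761). Atf4 read 65.0, 64.8 and 97.6 across WT, against 129 and 124 in Cebpa_KO (adjusted p = 0.0525; 0.00574 without WT replicate 3). Ppp1r15a, the phosphatase subunit GADD34, read 80.2, 99.8 and 597 across WT, against 811 and 864 in Cebpa_KO, so WT replicate 3 again stood with the Cebpa_KO libraries and the test did not pass (adjusted p = 0.122; 0.00295 without WT replicate 3).

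Termination and recycling genes included 4 higher and 1 lower of 11 tested. For this list and the mitochondrial list below, the shares of all tested genes were 9.93% higher and 9.82% lower. Abce1, which splits ribosomes after termination, read 47.9, 44.9 and 51.0 across WT, against 90.8 and 86.3 in Cebpa_KO (log2 difference 0.87 ± 0.09, adjusted p = 0.00725), and Etf1, the release factor eRF1, read 57.1, 54.6 and 49.1 across WT, against 84.7 and 81.4 in Cebpa_KO (log2 difference 0.62 ± 0.10, adjusted p = 0.0154); Denr and Abcf1 were higher by 0.43 and 0.33 and Hbs1l, a rescue factor, was lower (-0.51). Without WT replicate 2 the adjusted p of Etf1, Denr, Abcf1 and Hbs1l was 0.0556 to 0.0862, and without WT replicate 1 that of Denr and Abcf1 was 0.0520 and 0.0756. Of 10 mitochondrial translation factors, Tsfm (0.62), Mrrf (1.07) and Tufm (0.37) were higher and none was lower; without WT replicate 2 Mrrf and Tufm had an adjusted p of 0.0929 and 0.101, Tufm had 0.0583 without WT replicate 1 and Mrrf 0.0624 without WT replicate 3.

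Partners that join eIF4F to the cap and the poly(A) tail passed the limma test in 0 of 15 cases, with an unadjusted p under 0.05 in 1. Pabpc1, the poly(A)-binding protein, read 137, 171 and 138 across WT, against 150.2 and 143 in Cebpa_KO. The enzymes that make hypusine on eIF5A and diphthamide on eEF2 passed in 0 of 9, with an unadjusted p under 0.05 in 4, and that p was reached by 37.6% of all genes. Both Cebpa_KO libraries lay above all WT libraries for 7 of the 9, against 28.7% of all genes; Dhps, the first hypusine enzyme, read 39.2, 32.5 and 38.8 across WT, against 42.4 and 45.6 in Cebpa_KO (adjusted p = 0.174). By the median, the mTORC1, integrated stress response, mitochondrial, cap-partner, hypusine and termination lists differed by -0.25, -0.13, 0.14, 0.17, 0.26 and 0.33.

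Some member values may share reads with other genes. At 17 tested members an expressed gene overlaps on the opposite strand, and 6 of these were higher: Eif5b, Eif3j1, Eif6, Eif2a, Eef1akmt4 and Eef1ece2. The genes overlapping these 6 had differences from -0.27 (Spg11, at Eif3j1) to 0.47 (Alg3, at Eef1akmt4), and none of them passed. At the other 11, Gm17638 (0.42, at Eif3d), Banf1 (0.61, at Eif1ad) and Aimp2 (0.96, at Eif2ak1) were higher. On the same strand as a called member, Gm56114 at Eif3j1 was higher (1.13), and Gm20696 at Eif4e3 (-0.65) and Gm25835 at Eif4a1 (-0.71) were lower. No source used here gives the strand setting, and their reads cannot be told apart from those of the members. Of the 13 copies left out, Eif5al3-ps and Eif4a-ps4 were higher; summed with Eif5al3-ps, Eif5a was 1.82-fold higher, and summed with Eif4a-ps4, Eif4a1 was 1.53-fold higher.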

How the data were processed

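RNA of sorted Tfr cells was profiled in 3 WT and 2 Cebpa_KO libraries, made with a SMART-Seq v4 and Nextera XT low-input kit per the labels' protocols. The tools named in the submitters' processing notes are STAR 2.7.11b and StringTie 2.1.3b, on mm39; neither an annotation release nor a strand setting is given in the sources used here. The TPM column deposited by the authors was treated as a score, because it lists assembled loci, which sum to 1000000, and again the annotated genes, which carry 96.7% to 97.6% of that sum. FPKM values and the coverage signal, both deposited by the authors per the file headers, served for depth, taken from their ratio. Without read counts in the tables, no count model, counting interval or floor was applied; the 95% intervals given for differences are those of the limma fit.

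Annotated rows of 1 gene ID were summed. Scaling factors, the median ratio of a library to the geometric mean over genes that reach a TPM of 1 everywhere, ran from 0.984 to 1.04 in WT, with 0.998 and 1.01 in Cebpa_KO. A gene was tested if at least 2 of 5 libraries reached a TPM of 1. The test was limma-trend (limma 3.58.1, R 4.3.3) on log2(scaled TPM + 1), a scale that understates the change of low genes, and p-values were adjusted over all tested genes by Benjamini-Hochberg, with calls at 0.05. The fit was tested on simulated data. Tables were read with pandas 2.3.3; plots used matplotlib 3.10.9.

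The members and lists were chosen with earlier results of these data known. Named genes are the members past the threshold, key members of each role, up to 4 genes of each list with the smallest p that passed, and key regulators (Mtor, Myc, Atf4, Dhps, Ppp1r15a, Pabpc1, Larp1 and Pdcd4). Other members and the list genes Rps6kb1, Tsc1, Mknk1 and Abcf1 and the marker Ighg1 were named after their values were seen. Of the 13 copies left out, 1 ends in exactly -ps and the others in -ps and a number. Alternatives were pseudocounts of 0.1 and 5, testing without a filter, a TPM filter of 5, TPM without scaling, quantile normalization, limma without the trend or with robust estimation, a replicate block and each library left out. A comparison with WT replicate 3 alone was added after seeing the data.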

Additional observations from a re-analysis of the deposited data

Results flagged for a closer look

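Of the 13 copies of translation factor genes that the comparisons leave out, Eif5al3-ps and Eif4a-ps4 were higher in Cebpa_KO. The other copies passed in neither direction or were not tested. Eif5al3-ps, a copy named for Eif5a on chromosome 5, had a mean scaled TPM of 82.5 in Cebpa_KO, against 39.9 to 54.5 in WT. Eif4a-ps4, a copy named for Eif4a on chromosome 1, had a mean of 175 in Cebpa_KO, against 118 to 125.6 in WT.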

How the results depend on the processing

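Under pseudocounts of 0.1 and 5, unscaled TPM and robust estimation, 29 members were higher and 3 lower, the same 29 genes as in the main result; a filter at a TPM of 5 gave 30 and 2, quantile normalization 27 and 3, and no trend 23 and 3. No filter gave 15 and 1 of 82 members, with 930 genes higher and 629 lower among all 38302 (2.43% and 1.64%). The members' median was 0.32 with a pseudocount of 5, 0.32 with quantile normalization and 0.22 with no filter, where more low genes enter. Against WT replicate 3 alone, an alternative chosen after seeing the data, 13 members were higher and 1 lower, and 1014 and 647 of all genes; a lone WT library is assumed to vary like the others.

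Leaving out 1 library at a time gave 0 to 28 members higher, 0 to 3 lower and a median of 0.34 to 0.40. Among all tested genes, 5 to 2177 were higher (0.0314% to 13.7%) and 18 to 1825 lower (0.113% to 11.5%). Cebpa ranged from -3.54 to -3.27. Leaving out 1 library leaves 2 residual degrees of freedom.

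Replicate numbers do not pair the libraries: only 2 are shared, nothing in the labels ties them, and the WT and Cebpa_KO deviations correlated at r = 0.0709 over 16254 genes. A replicate block gave 20 members higher and 2 lower (10 of the 29 lost and 1 gained) and 1359 and 1050 of all genes (8.36% and 6.46%). WT replicate 3 has no Cebpa_KO partner in the block, so the blocked differences are those against WT replicates 1 and 2. The changed signs of Eef2 (-0.0848) and Eef1a1 (-0.0833) are thus not separate from those seen without WT replicate 3.

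Small differences that passed in no setting changed sign, and the cause was not tested. Eef2 was -0.0663 under quantile normalization. Without 1 library, Eef2 was -0.0890 to 0.0813, Eef1a1 -0.0876 to 0.130, Pabpc1 -0.0680 to 0.0889, Mtor -0.0556 to 0.109 and Eif2ak3 -0.330 to 0.0113. Against WT replicate 3 alone, Pabpc1 was 0.0817, Eif4a2 -0.168 and Mtor -0.0179.

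Values of TPM carry no counting error, so the precision of low members such as Eef2k is unknown beyond the spread of libraries.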
